A study of Mus musculus with 4 samples.

Results

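The genes described here are 35 regulators of chromatin and DNA methylation: Polycomb proteins, enzymes that add or remove DNA methylation, and enzymes that modify histones. They were chosen by gene symbol from a fixed list, not by their signal, and are 35 of 34843 gene names on the arrays. All 35 had a probe, and each was represented by its brightest probe, which was well above background on all 4 arrays for all 35. The same held for 19010 gene names, called measured genes here.

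Signal was measured in LSK cells, the lineage(-) Sca-1(+) cKit(+) fraction of bone marrow that holds blood stem cells and early progenitors, on 4 Agilent 1-colour arrays. The 4 arrays held RNA of Aspp1-/-p53-/- mice (genotype Mx1-Cre(+)Aspp1-/-p53flox/flox), p53-/- mice (Mx1-Cre(+)p53flox/flox), Aspp1-/- mice and wild-type (WT) mice, all male and C57BL/6. Every genotype, WT included, received 5 injections of pIpC, 1 every other day, starting at 8 weeks of age, and cells were taken 4 weeks after treatment, from mice labelled as 12 weeks old. The dose is 400 μg in the design text, whereas the labels of the 4 samples run from 400 to 403 μg. Mx1-Cre is a recombinase under an interferon-inducible promoter, which pIpC switches on and which is not specific to blood cells. Aspp1, encoded by Ppp1r13b, binds p53, encoded by Trp53, a transcription factor of the stress response. Each genotype is 1 array of RNA pooled from 3 mice, so the arrays carry no spread between mice, and no pairwise difference below has a test. The arrays of both genotypes with Mx1-Cre lay in slide row 2 and the other 2 arrays in row 1, so loss of p53, the presence of Mx1-Cre and the slide row cannot be told apart. The WT and p53-/- arrays lay in slide column 1, the Aspp1-/- array in column 2 and the Aspp1-/-p53-/- array in column 4. Loss of Aspp1 and the slide column therefore cannot be told apart either.

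The labels were checked on the targeted genes and on cell type markers. The Ppp1r13b probe read 2.14 in Aspp1-/-p53-/- cells, 4.64 in p53-/- cells, 2.10 in Aspp1-/- cells and 4.71 in WT cells, on a log2 scale on which 0 is the 75th percentile of each array. The Trp53 probe read −1.48 in Aspp1-/-p53-/- cells, −1.64 in p53-/- cells, 0.65 in Aspp1-/- cells and 0.54 in WT cells. Each targeted gene was thus lower on both arrays labelled as lacking it than on both others. The Ppp1r13b probe still read above the 75th percentile on the arrays labelled as lacking Aspp1. All 8 LSK markers, among them Kit, Ly6a and Flt3, were measured genes, with a median log2 difference of −0.03 in Aspp1-/-p53-/- against WT cells. Between 51.2% and 54.1% of spots per array were well above background, and none was saturated.

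Polycomb proteins keep genes silent through 2 complexes: PRC2 methylates lysine 27 of histone H3, and PRC1 binds that mark and ubiquitinates histone H2A. DNA methyltransferases add methyl groups to cytosine, and TET enzymes oxidise them, a first step of their removal. In blood stem cells these enzymes help to set the balance of self-renewal and differentiation, and DNMT3A, TET2, ASXL1, EZH2, IDH1 and IDH2 are often mutated in human myeloid disease.

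Promoters are shown for 3 members that carry a motif linked to the cell cycle or to cyclic AMP signalling: Asxl1 and Cbx8, the 2 members whose signal exceeded WT by more than 1.25-fold in Aspp1-/-p53-/- cells, and Ezh2, the catalytic subunit of PRC2. Each window runs from 250 bases before to 50 bases after the gene's start, 5′ to 3′ on the gene's strand, from RefSeq on GRCm38.p6. Capitals mark an E2F motif (TTCCCGC or TTGGCGC) in Asxl1 and Ezh2 and a cyclic AMP response element (TGACGTCA) in Cbx8. The windows are chr2:153345580-153345879 on the plus strand for Asxl1, chr11:119040864-119041163 on the minus strand for Cbx8 and chr6:47594981-47595280 on the minus strand for Ezh2.
Asxl1: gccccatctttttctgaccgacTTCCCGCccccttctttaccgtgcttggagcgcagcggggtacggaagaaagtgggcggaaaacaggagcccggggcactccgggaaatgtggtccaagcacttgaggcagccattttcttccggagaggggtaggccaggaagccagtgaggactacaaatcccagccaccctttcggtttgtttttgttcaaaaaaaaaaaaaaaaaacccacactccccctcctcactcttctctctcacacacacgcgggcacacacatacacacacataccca
Cbx8: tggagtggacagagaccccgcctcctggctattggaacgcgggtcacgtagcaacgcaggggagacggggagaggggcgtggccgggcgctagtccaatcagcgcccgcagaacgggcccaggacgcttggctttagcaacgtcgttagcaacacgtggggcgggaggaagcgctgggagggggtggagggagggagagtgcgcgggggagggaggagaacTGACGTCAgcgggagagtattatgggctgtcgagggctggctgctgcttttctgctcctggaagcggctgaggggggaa
Ezh2: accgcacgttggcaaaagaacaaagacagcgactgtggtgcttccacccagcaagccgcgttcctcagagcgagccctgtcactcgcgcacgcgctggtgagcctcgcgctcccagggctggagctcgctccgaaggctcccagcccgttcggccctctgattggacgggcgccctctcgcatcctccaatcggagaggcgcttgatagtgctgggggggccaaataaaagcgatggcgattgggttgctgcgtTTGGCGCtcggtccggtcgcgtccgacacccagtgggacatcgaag

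Of the 35 members, 30 had such a window. On either strand, an E2F motif lay in the windows of 4 of the 30 members (13.3%), Asxl1, Dnmt1, Ezh2 and Suz12, against 13.5% of the 9437 measured genes with a window. The E2F motif of Asxl1, 228 bases before the start, overlapped a GGGCGG motif on the other strand, whereas that of Ezh2 lay 5 bases after the start. A cyclic AMP response element lay in the window of Cbx8 alone among the members, against 3.53% of measured genes. The AP-1 motif TGACTCA lay in 0 of 30 members' windows and in 4.57% of measured genes. The windows of the members were richer in GC and CpG than those of measured genes. Their median GC content was 67.2% against 60.3%, and their median ratio of observed to expected CpG was 0.811 against 0.736. The Asxl1 window lay below these medians, at 54.0% and 0.613. GGGCGG, the Sp1 motif, was found in 26 of 30 (86.7%) against 65.7% of measured genes. Matches are letters in these windows only, and no binding was measured.

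The 35 members differed little between the genotypes. No member differed by 2-fold in any of the 5 comparisons. Among measured genes, 2.26% passed 2-fold in Aspp1-/-p53-/- against WT cells, 1.09% in p53-/- against WT cells and 0.526% in Aspp1-/- against WT cells. It was 1.44% in Aspp1-/-p53-/- against p53-/- cells and 1.59% in Aspp1-/-p53-/- against Aspp1-/- cells. A count of 0 of 35 is near these rates.

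At 1.5-fold, Kdm6b was the only member past the size, and it was lower in Aspp1-/-p53-/- cells both against WT (7.02% of measured genes were past 1.5-fold there) and against Aspp1-/- cells (5.38%). No member passed 1.5-fold in p53-/- against WT cells, where 3.44% of measured genes did, in Aspp1-/- against WT cells (2.2%) or in Aspp1-/-p53-/- against p53-/- cells (3.86%). A smaller size of 1.25-fold, added after the values were seen, was passed in Aspp1-/-p53-/- against WT cells by 5 members (19.3% of measured genes), Kdm6b, Cbx7 and Tet1 lower and Cbx8 and Asxl1 higher. It was passed by Kdm6b and Cbx7 in p53-/- against WT cells (11.6% of measured genes) and by Kdm6b and Tet1 in Aspp1-/-p53-/- against Aspp1-/- cells (14.8%). No member passed 1.25-fold in Aspp1-/- against WT cells (10.4% of measured genes) or in Aspp1-/-p53-/- against p53-/- cells (11%). As a share, 14.3% of members passed it at most, below the share of measured genes in each comparison. Cbx7 no longer passed it with normexp background correction, nor Tet1 with the mean of its probes.

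**Figure D1:**
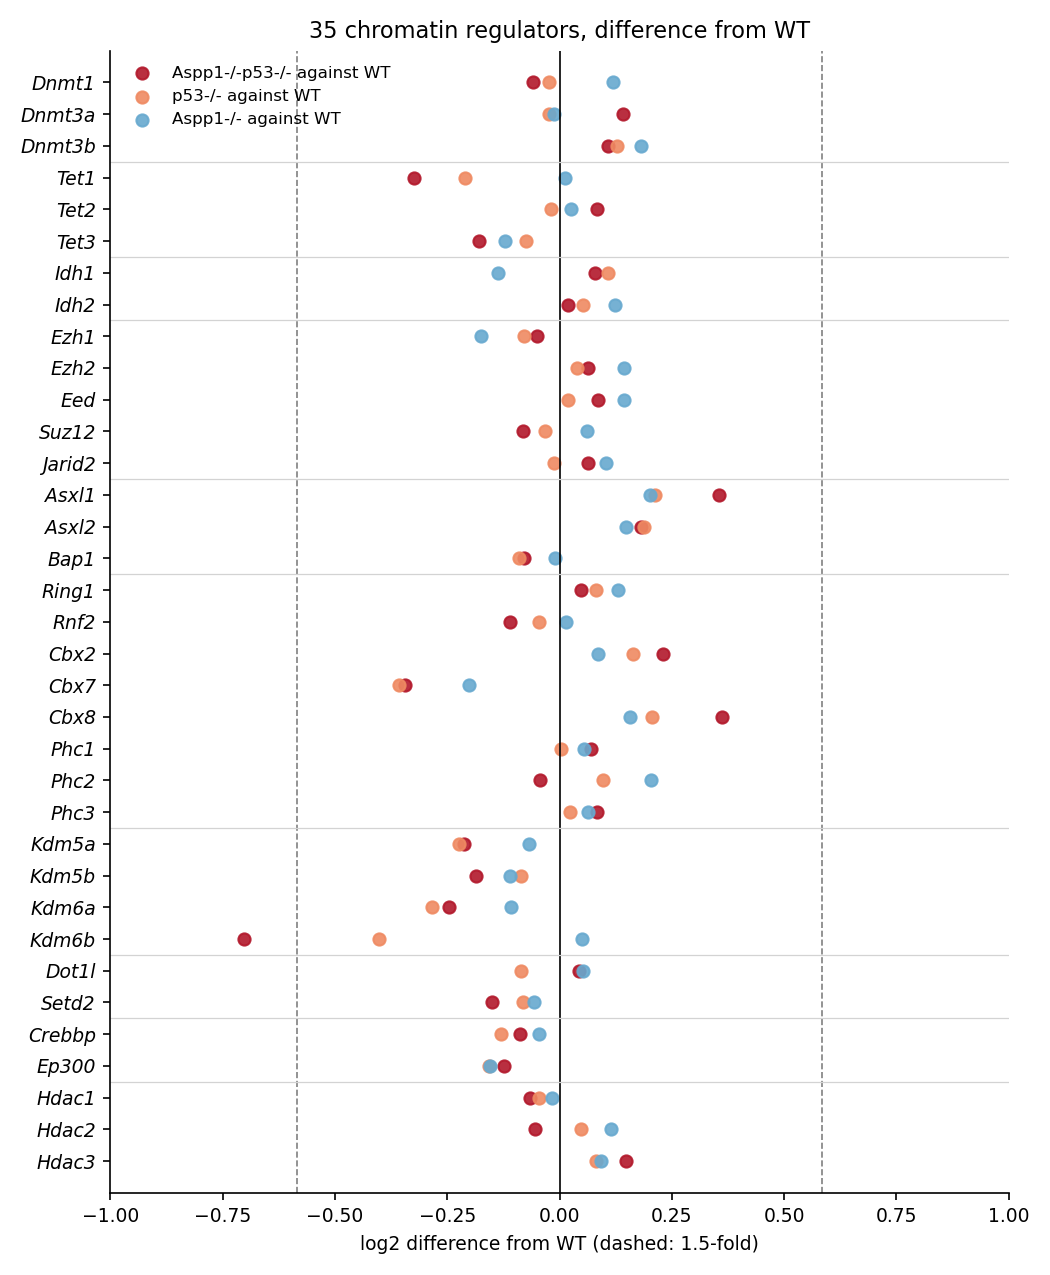
Log2 difference from WT of the 35 members (rows, grouped by role) in Aspp1-/-p53-/-, p53-/- and Aspp1-/- cells, 1 array each; the dashed lines mark 1.5-fold. Kdm6b in Aspp1-/-p53-/- cells, at −0.70, is the only point beyond a dashed line.

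The spread of the members was narrow. They were also brighter, with a median log2 level over the 4 arrays of 2.23, against 0.86 for all measured genes. The part of signal level in the narrow spread and in the shares past each size was not tested. The range of a member over the 4 arrays had a median of 0.164 on the log2 scale, against 0.211 for all measured genes, and it was below 0.2 for 25 of 35 members (71.4%) against 47.2% of measured genes. The error that the scanner software attaches to a signal amounts to about 0.204 for a difference between 2 arrays for a gene with 1 spot. Ranges below 0.2 of such genes are within it. Setd2 and Hdac2, with several spots, had errors of 0.0645 and 0.0755 in Aspp1-/-p53-/- against WT cells, below their ranges of 0.150 and 0.168. Spots of the same probe on 1 array varied less than 0.204, with a median SD between 0.0532 and 0.0544 per array. In Aspp1-/-p53-/- against WT cells, 9 members exceeded their own scanner error, against 32.3% of measured genes. In p53-/- against WT cells 7 members did (20.8% of measured genes) and in Aspp1-/- against WT cells 1 did, Hdac2 (22.1%), a probe with several spots.

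The centre of the members moved little. The median log2 difference of the 35 members was −0.04 in Aspp1-/-p53-/- against WT cells, −0.02 in p53-/- against WT cells and 0.05 in Aspp1-/- against WT cells, beside medians of 0.02, 0.01 and 0.02 over all measured genes. It was 0.01 in Aspp1-/-p53-/- against p53-/- cells and −0.06 in Aspp1-/-p53-/- against Aspp1-/- cells, beside 0.01 and −0.00 over measured genes. The median size of the difference, whatever its direction, was 0.0891 in Aspp1-/-p53-/- against WT cells for members and 0.137 for measured genes.

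**Figure D2:**
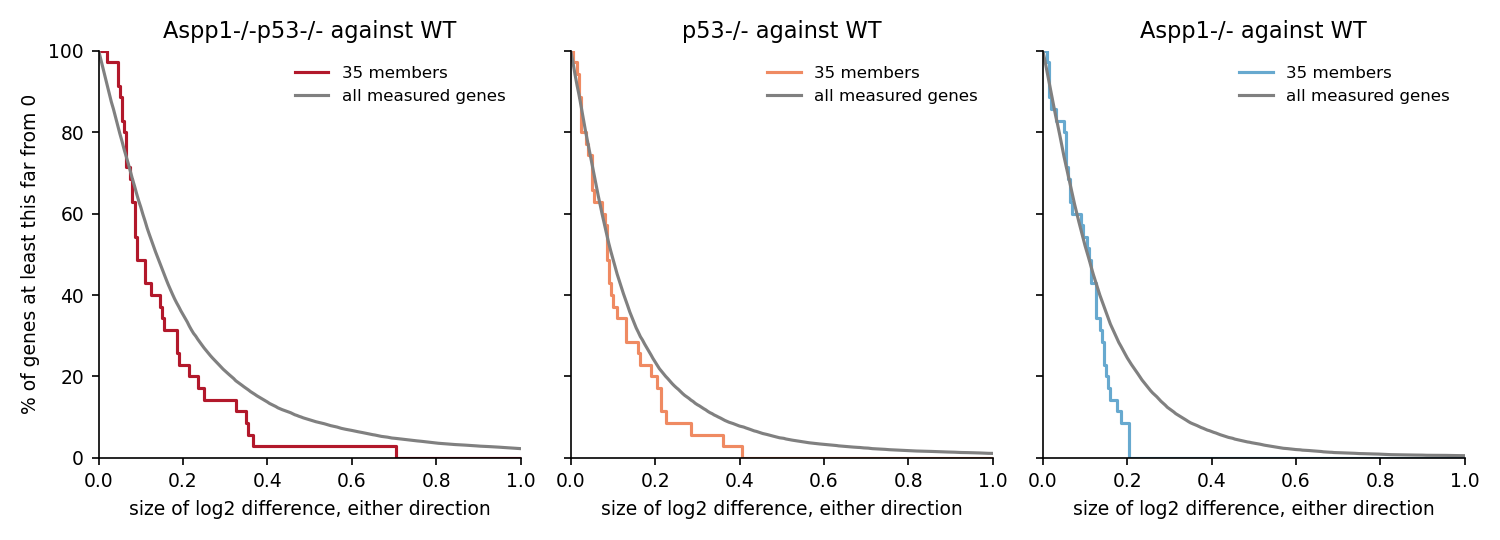
Percentage of genes (y axis) whose log2 difference from WT is at least as large as the value on the x axis, in either direction, for the 35 members and for the 19010 measured genes, in each of 3 genotypes. Beyond about 0.2 the curves of the members lie below those of all measured genes in all 3 panels.

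The demethylases of lysine 27 and lysine 4 of histone H3 held the member that differed most. Kdm6b encodes JMJD3, which removes methyl groups from lysine 27 of histone H3, the mark that PRC2 writes, and which is induced by inflammatory signals in macrophages. Its probe (NM_001017426, chr11:69212177-69212236 on the minus strand, mm9) read 3.01 in Aspp1-/-p53-/- cells, 3.31 in p53-/- cells, 3.77 in Aspp1-/- cells and 3.72 in WT cells. Both arrays without p53 were lower than both arrays with it, and the array without both genes was the lowest. The log2 difference was −0.70 in Aspp1-/-p53-/- against WT cells, a fold of 0.615, and 4.81% of measured genes lay at least as far from 0. It was −0.40 in p53-/- against WT cells, 0.05 in Aspp1-/- against WT cells, −0.75 in Aspp1-/-p53-/- against Aspp1-/- cells and −0.30 in Aspp1-/-p53-/- against p53-/- cells. The difference of Aspp1-/-p53-/- cells from WT departed from the sum of those of the single genotypes by −0.35, the lowest such value among the members. No member had a departure of 1.5-fold from that sum, against 5.84% of measured genes.

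In an additive model with terms for loss of Aspp1 and loss of p53, fitted over all 19010 genes on 4 arrays with 1 residual degree of freedom, limma estimated a p53 term of −0.58 ± 0.12 (SE) for Kdm6b. Its adjusted p was 0.322 (limma, Benjamini-Hochberg). No gene passed an adjusted p of 0.05 for either term, so 0% of measured genes and 0 of 35 members were called. At an unadjusted p under 0.05, the p53 term took in 12.3% of measured genes and 3 members, Kdm6b, Tet1 and Cbx8, and the Aspp1 term 8.6% and 0 members.

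**Figure D3:**
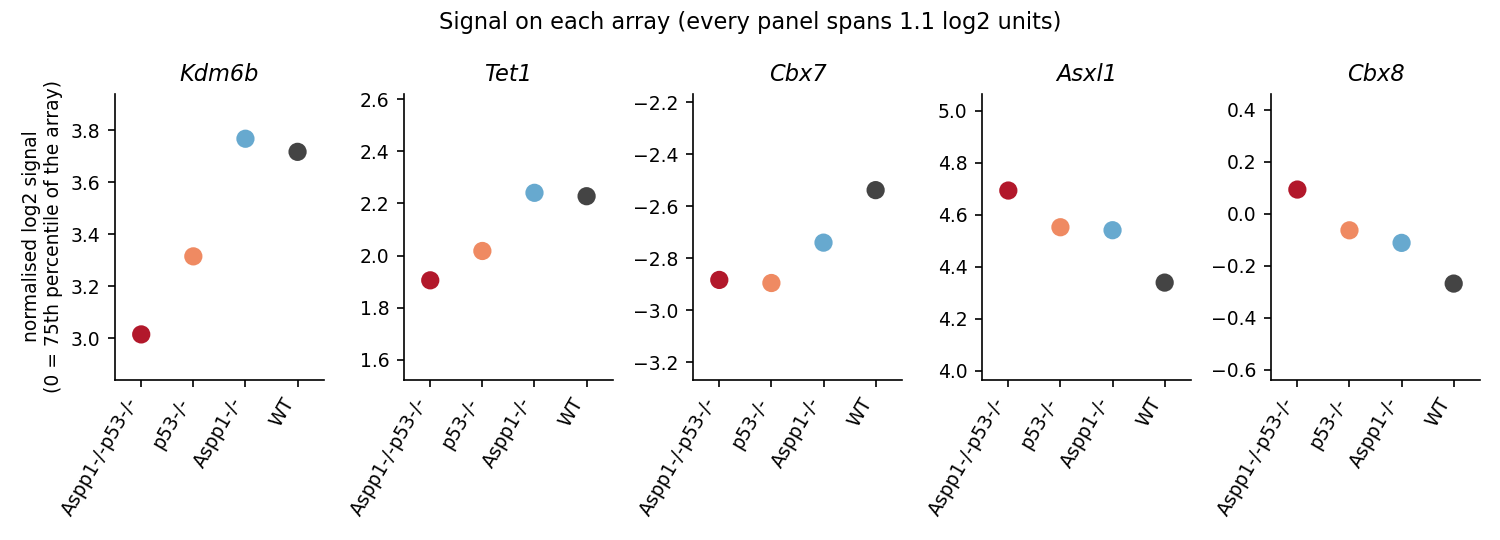
Normalised log2 signal of the 5 members past 1.25-fold in Aspp1-/-p53-/- against WT cells, 1 point per array, each panel spanning 1.1 log2 units. Kdm6b and Tet1 are lower on both arrays without p53 than on the other 2, Cbx7 is highest in WT cells, and Asxl1 and Cbx8 are highest in Aspp1-/-p53-/- cells and lowest in WT cells.

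Immediate-early genes, the rapid first response of a cell to stimulation or handling, moved in the direction of Kdm6b. Of 15 listed genes such as Fos, Egr1 and Atf3, 14 were measured, and 14 of 14 were below WT in Aspp1-/-p53-/- cells, 8 of them past 2-fold, with a median log2 difference of −1.05. In p53-/- against WT cells 13 of 14 were lower, with a median of −0.37, and in Aspp1-/- against WT cells 9 of 14 were, with a median of −0.07. Their summed signal, in multiples of the 75th percentile, was 966 in Aspp1-/-p53-/- cells, 1559 in p53-/- cells, 2014 in Aspp1-/- cells and 2206 in WT cells. Granulocyte markers were lower in Aspp1-/-p53-/- cells too: 9 of 9 lay below WT, with a median of −1.69, and their summed signal was 62.4 in Aspp1-/-p53-/- cells, 158 in p53-/- cells, 154 in Aspp1-/- cells and 177 in WT cells. Of the 9 granulocyte markers 7 were past 2-fold, and Ly6g differed least, by −0.04. Monocyte and dendritic cell markers went the other way, with 6 of 6 measured above WT in Aspp1-/-p53-/- cells, at a median of 0.28. In p53-/- cells 5 of 6 were above WT and in Aspp1-/- cells 1 of 6 was, with medians of 0.25 and −0.27. The part of any of these groups of genes in the Kdm6b difference was not tested. In such pooled bulk RNA, fewer cells of a type and less RNA per cell cannot be told apart.

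Kdm6b lies on the chromosome of Trp53, and its probe is 192 kb from that of Trp53. Of 34 other measured genes within 250 kb of the Trp53 probe, Kdm6b included, 17 were below WT in p53-/- cells and 19 in Aspp1-/-p53-/- cells, with medians of −0.00 and −0.04. The 2 nearest to Trp53 on its far side differed in opposite directions: Atp1b2, 9.05 kb away, by −1.16 in Aspp1-/-p53-/- against WT cells and −1.44 in p53-/- against WT cells, and the transcript TC1693501, 15.7 kb away, by 1.32 and 1.23. Next to Kdm6b, Tmem88, 1.27 kb from the Kdm6b probe and read from the same strand, had a log2 difference of −0.998 in Aspp1-/-p53-/- against WT cells and −0.28 in p53-/- against WT cells. The transcript ENSMUST00000129924, 3.93 kb to the other side and on the opposite strand, differed by −0.60 in Aspp1-/-p53-/- against WT cells and −0.06 in p53-/- against WT cells. Cyb5d1, 6.72 kb away, differed by −0.53 and Lsmd1, 2.08 kb away, by 0.08 in Aspp1-/-p53-/- against WT cells. So 3 of the 4 nearest measured neighbours with a gene or transcript name were lower than WT along with Kdm6b, and Lsmd1 was not.

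**Figure D4:**
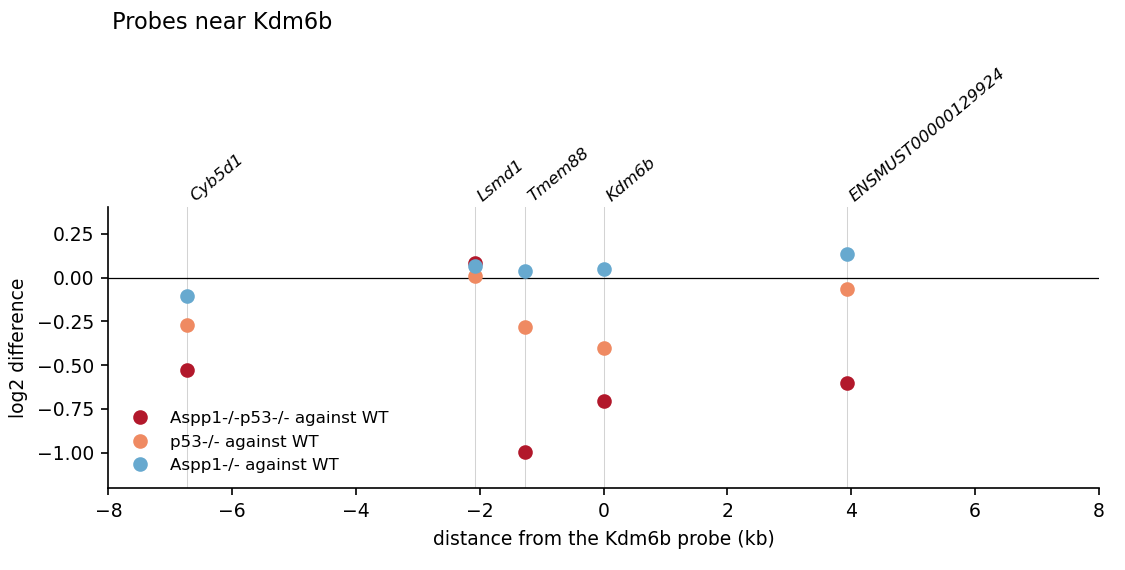
Log2 difference from WT (y axis) of the named measured probes around Kdm6b against their distance from the Kdm6b probe in kb (x axis), for Aspp1-/-p53-/-, p53-/- and Aspp1-/- cells, 1 array each. Tmem88 (−0.998), Kdm6b (−0.70), ENSMUST00000129924 (−0.60) and Cyb5d1 (−0.53) lie below 0 in Aspp1-/-p53-/- cells, and Lsmd1 lies at 0.08.

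The other 3 demethylases among the members were below WT on all 3 mutant arrays, each by less than 1.25-fold. Kdm6a encodes UTX, an X-linked demethylase of the same mark as JMJD3. Its log2 signal was −0.62 in Aspp1-/-p53-/- cells, −0.66 in p53-/- cells, −0.48 in Aspp1-/- cells and −0.37 in WT cells, so that both arrays without p53 were lower than both with it. Kdm5a, which removes methyl groups from lysine 4 of histone H3, showed the same order of groups with 2.05 in Aspp1-/-p53-/- cells, 2.04 in p53-/- cells, 2.20 in Aspp1-/- cells and 2.27 in WT cells. Kdm5b, its paralogue, read 4.36 in Aspp1-/-p53-/- cells, 4.46 in p53-/- cells, 4.44 in Aspp1-/- cells and 4.55 in WT cells, a range of 0.186. For Kdm5b the choice of probe matters: the probe for AK163481, a dim one, read higher than WT by 0.79 in Aspp1-/-p53-/- cells, 0.43 in p53-/- cells and 0.76 in Aspp1-/- cells. The direction was not shared by demethylases outside the members: of 11 listed, Kdm1a and Kdm5c among them, 9 were above WT in Aspp1-/-p53-/- cells and 9 in p53-/- cells, with medians of 0.09 and 0.06.

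Among the TET enzymes, Tet1 was lower without p53. Its brightest probe read 1.90 in Aspp1-/-p53-/- cells, 2.02 in p53-/- cells, 2.24 in Aspp1-/- cells and 2.23 in WT cells, and both arrays without p53 were below both with it. The p53 term of the additive model was −0.27 ± 0.07 (SE), with an adjusted p of 0.356 (limma, Benjamini-Hochberg). With the mean of all 3 Tet1 probes it was −0.10 ± 0.06 (SE), with an unadjusted p of 0.186 and an adjusted p of 0.571 (limma). The other 2 Tet1 probes did not share the order: in Aspp1-/-p53-/- against WT cells they differed by −0.16 and −0.13, and in Aspp1-/-p53-/- against Aspp1-/- cells by 0.14 and −0.10. Tet2, often lost in myeloid disease, read 1.69 in Aspp1-/-p53-/- cells, 1.59 in p53-/- cells, 1.63 in Aspp1-/- cells and 1.61 in WT cells, a range of 0.104. Tet3 read −1.82 in Aspp1-/-p53-/- cells, −1.71 in p53-/- cells, −1.76 in Aspp1-/- cells and −1.64 in WT cells. The brightest probes of Tet2 and Tet3 stayed within the scanner error of a difference. A dimmer Tet3 probe exceeded its error, at −0.53 in Aspp1-/-p53-/- against WT cells and −0.42 in p53-/- against WT cells. The remaining Tet3 probe was at −0.12 and 0.04 there. Further Tet2 probes were at 0.24, past its error, and 0.01 in p53-/- against WT cells.

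The brightest probes of the DNA methyltransferases stayed within the scanner error in every comparison. A further Dnmt3b probe differed by 0.215 in Aspp1-/- against WT cells, just past its error of 0.204. Dnmt1, which copies methylation after replication, read 2.43 in Aspp1-/-p53-/- cells, 2.46 in p53-/- cells, 2.61 in Aspp1-/- cells and 2.49 in WT cells. Dnmt3a, which sets methylation de novo, read 2.47 in Aspp1-/-p53-/- cells, 2.30 in p53-/- cells, 2.31 in Aspp1-/- cells and 2.32 in WT cells. Dnmt3b, the other de novo enzyme, read 4.77 in Aspp1-/-p53-/- cells, 4.79 in p53-/- cells, 4.85 in Aspp1-/- cells and 4.67 in WT cells. Each of the 3 was highest on a mutant array, Dnmt1 and Dnmt3b in Aspp1-/- cells and Dnmt3a in Aspp1-/-p53-/- cells. Idh1 and Idh2 make the 2-oxoglutarate that TET enzymes and many histone demethylases use. Idh1 read −1.83 in Aspp1-/-p53-/- cells, −1.80 in p53-/- cells, −2.04 in Aspp1-/- cells and −1.90 in WT cells, with both arrays without p53 above both with it. Idh2 read 6.53 in Aspp1-/-p53-/- cells, 6.57 in p53-/- cells, 6.64 in Aspp1-/- cells and 6.51 in WT cells, a range of 0.124.

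The brightest probes of the PRC2 subunits stayed within the scanner error, and their widest range over the arrays was 0.174, that of Ezh1. Ezh2 read 3.65 in Aspp1-/-p53-/- cells, 3.62 in p53-/- cells, 3.73 in Aspp1-/- cells and 3.58 in WT cells. Eed, which binds the methylated lysine, read 4.75 in Aspp1-/-p53-/- cells, 4.68 in p53-/- cells, 4.81 in Aspp1-/- cells and 4.66 in WT cells. Suz12, the scaffold of the complex, read 2.83 in Aspp1-/-p53-/- cells, 2.88 in p53-/- cells, 2.97 in Aspp1-/- cells and 2.91 in WT cells. Jarid2, an accessory subunit, had a range of 0.115, with 1.40 in Aspp1-/- cells against 1.30 in WT cells. These 4 genes were all highest in Aspp1-/- cells. Ezh1, the second catalytic subunit, was the exception and was lowest there, at 4.13 against 4.30 in WT cells. Further probes of Ezh1 differed by −0.39, −0.28 and −0.07 in p53-/- against WT cells. The dim ones, at −0.39 and −0.28, exceeded their scanner error. Of 13 measured replication genes, such as Mcm2 and Pcna, 12 were above WT in Aspp1-/-p53-/- cells, 8 in p53-/- cells and 12 in Aspp1-/- cells, with median log2 differences of 0.11, 0.01 and 0.14, and their summed signal was 644 in Aspp1-/-p53-/- cells, 611 in p53-/- cells, 658 in Aspp1-/- cells and 609 in WT cells. The part of replication genes in the PRC2 values was not tested.

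PRC1 held members that differed in opposite directions. Cbx2, Cbx7 and Cbx8 encode chromodomain subunits that take turns in PRC1 and bind methylated lysine 27. Cbx8 (NM_013926, chr11:118899777-118899836 on the minus strand, mm9) read 0.09 in Aspp1-/-p53-/- cells, −0.06 in p53-/- cells, −0.11 in Aspp1-/- cells and −0.27 in WT cells. The groups were ordered with each lost gene: WT was lowest, the single genotypes lay between, and Aspp1-/-p53-/- was highest. The log2 difference was 0.36 in Aspp1-/-p53-/- against WT cells, 0.20 in p53-/- against WT cells and 0.16 in Aspp1-/- against WT cells, and the departure from their sum was 0.00. Only the difference of Aspp1-/-p53-/- from WT cells was past its scanner error, 0.205. Those of p53-/- and Aspp1-/- cells were within theirs, 0.206 and 0.205, so a step with each lost gene is not resolved. The p53 term was 0.20 ± 0.06 (SE), with an adjusted p of 0.387 (limma, Benjamini-Hochberg).

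Cbx2, whose probe lies 7.41 kb from that of Cbx8, showed the same order with smaller steps, at 1.31 in Aspp1-/-p53-/- cells, 1.24 in p53-/- cells, 1.16 in Aspp1-/- cells and 1.08 in WT cells. Its differences from WT in p53-/- cells, 0.16, and in Aspp1-/- cells, 0.09, were within the scanner error of 0.204. That in Aspp1-/-p53-/- cells, 0.23, was past it. Cbx7, the subunit tied to stem cell self-renewal in mouse blood, went the other way: −2.88 in Aspp1-/-p53-/- cells, −2.89 in p53-/- cells, −2.74 in Aspp1-/- cells and −2.54 in WT cells. This probe is dim, with a scanner error of 0.241 for the difference of Aspp1-/-p53-/- from WT cells, and with normexp background correction the value in Aspp1-/-p53-/- against WT cells was −0.09 in place of −0.35, and in p53-/- against WT cells −0.20 in place of −0.36. Its other probe was not above background on any array.

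On their brightest probes, the remaining PRC1 members apart from Phc2 kept within narrow limits. Phc2, a polyhomeotic subunit, read 4.12 in Aspp1-/-p53-/- cells, 4.26 in p53-/- cells, 4.37 in Aspp1-/- cells and 4.17 in WT cells. Its difference of −0.25 in Aspp1-/-p53-/- against Aspp1-/- cells was past its scanner error of 0.204. Its departure from the sum of the single genotypes was −0.34. A dim further Phc2 probe differed by 0.56 in Aspp1-/- against WT cells, past its scanner error of 0.404. Phc1 and Phc3 had ranges of 0.0708 and 0.0829, less than any of the other PRC1 members. A dim further Phc1 probe differed by −0.58 in Aspp1-/-p53-/- against Aspp1-/- cells, past its scanner error of 0.275. The ubiquitin ligases Ring1 and Rnf2 had ranges of 0.131 and 0.123 and were both highest in Aspp1-/- cells.

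Asxl1 was the other member more than 1.25-fold above WT in Aspp1-/-p53-/- cells. Together with BAP1, ASXL1 and ASXL2 remove ubiquitin from histone H2A, opposite to PRC1. Asxl1 (NM_001039939, chr2:153229684-153229743 on the plus strand, mm9) read 4.69 in Aspp1-/-p53-/- cells, 4.55 in p53-/- cells, 4.54 in Aspp1-/- cells and 4.34 in WT cells. All 3 mutant arrays were above WT, by 0.35 in Aspp1-/-p53-/- cells (a fold of 1.28), 0.21 in p53-/- cells and 0.20 in Aspp1-/- cells. The difference in Aspp1-/- cells was within the scanner error of 0.204, and those in p53-/- and Aspp1-/-p53-/- cells were past it. Asxl2 read 1.82 in Aspp1-/-p53-/- cells, 1.82 in p53-/- cells, 1.78 in Aspp1-/- cells and 1.64 in WT cells, again lowest in WT cells, although its second probe differed by −0.17 in Aspp1-/-p53-/- against WT cells. Bap1 had a range of 0.0905 and was highest in WT cells.

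The brightest probes of the acetyltransferases, deacetylases and the remaining histone methyltransferases lay within 0.2 over the 4 arrays. Crebbp and Ep300, paralogous acetyltransferases that also serve as p53 coactivators, were highest in WT cells, with ranges of 0.129 and 0.158. A further Crebbp probe did not share this order, with a difference of 0.00 in Aspp1-/-p53-/- against WT cells. It differed by −0.24 in Aspp1-/- against WT cells and 0.24 in Aspp1-/-p53-/- against Aspp1-/- cells, past its scanner errors of 0.208 and 0.209. Hdac1, a class I deacetylase like Hdac2 and Hdac3, read 5.83 in Aspp1-/-p53-/- cells, 5.85 in p53-/- cells, 5.88 in Aspp1-/- cells and 5.90 in WT cells, and its range of 0.0647 was the smallest of all 35 members. Hdac2 read −1.52 in Aspp1-/-p53-/- cells, −1.42 in p53-/- cells, −1.35 in Aspp1-/- cells and −1.47 in WT cells. Hdac3 was highest in Aspp1-/-p53-/- cells, at 0.67 against 0.53 in WT cells. Setd2, which methylates lysine 36 of histone H3, read 3.91 in Aspp1-/-p53-/- cells, 3.98 in p53-/- cells, 4.01 in Aspp1-/- cells and 4.06 in WT cells. Its probe has several spots and a smaller scanner error, which its difference of −0.15 in Aspp1-/-p53-/- against WT cells exceeded. Dot1l, which methylates lysine 79 of histone H3, read 3.70 in Aspp1-/-p53-/- cells, 3.57 in p53-/- cells, 3.71 in Aspp1-/- cells and 3.66 in WT cells. Its other 2 probes did not share this: in Aspp1-/-p53-/- against WT cells they differed by −0.26 and −0.20, and in p53-/- against WT cells by −0.22 and −0.45.

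Counted without regard to size, 12 of the 35 members were lower on both arrays without p53 than on both arrays with it, a share of 34.3% against 20.5% of measured genes. They were Dnmt1, Tet1, Suz12, Bap1, Rnf2, Cbx7, Kdm5a, Kdm6a, Kdm6b, Setd2, Crebbp and Hdac1. Another 5 members, Idh1, Asxl1, Asxl2, Cbx2 and Cbx8, were higher on both, 14.3% against 20.6% of measured genes. For Aspp1, 2 members were lower on both arrays without it, Tet3 and Kdm5b, against 14.3% of measured genes. A further 8 were higher on both, Tet2, Ezh2, Eed, Jarid2, Phc1, Phc3, Dot1l and Hdac3, or 22.9% against 22.3% of measured genes. Most of these differences are smaller than the scanner error, and their order on the arrays is a description of these 4 arrays.

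The 2 comparisons that remove p53, p53-/- against WT cells and Aspp1-/-p53-/- against Aspp1-/- cells, share no array. Across the 35 members their log2 differences had a Pearson r of 0.63, or 0.49 without Kdm6b, and 0.37 across measured genes. The direction was the same for 24 of 35 members (68.6%) and for 61.2% of measured genes. Kdm6b, Tet1 and Setd2 exceeded their scanner error in both, each lower without p53. The 2 comparisons that remove Aspp1, Aspp1-/- against WT and Aspp1-/-p53-/- against p53-/- cells, had an r of 0.09 across members and 0.23 across measured genes, with the same direction in 16 of 35 members (45.7%) and 60.5% of measured genes. These are values across genes, which are not independent. Both p53 comparisons set slide row 2 against row 1, and both Aspp1 comparisons set slide column 2 or 4 against column 1.

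**Figure D5:**
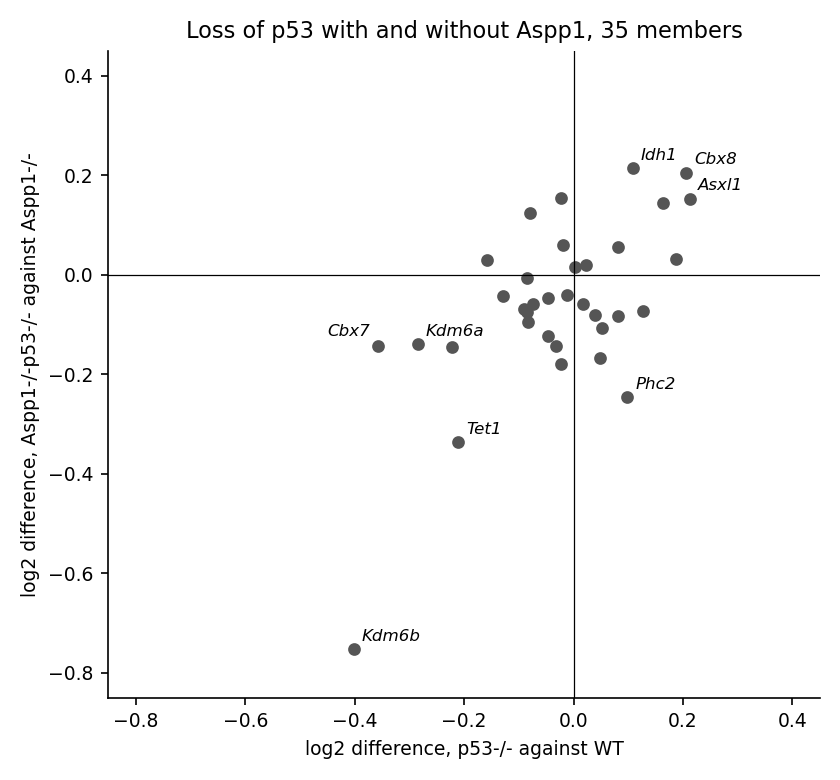
Log2 difference of the 35 members in p53-/- against WT cells (x axis) and in Aspp1-/-p53-/- against Aspp1-/- cells (y axis), 1 point per gene, with 8 genes named. Kdm6b lies far to the lower left, and the other points scatter within about 0.4 of 0 on both axes (r = 0.63 over the 35 points and 0.49 without Kdm6b).

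Other chromatin genes also differed little. Of 99 other genes listed by family (other subunits of PRC2 and PRC1, trithorax, SWI/SNF, the remaining demethylases, acetylation and deacetylation enzymes, methyl-CpG and heterochromatin proteins), 98 were measured and none differed by 2-fold in any comparison, where 0.526% to 2.26% of measured genes did. In Aspp1-/-p53-/- against WT cells, 43 of 98 were lower, with a median of 0.03, and 0 passed 1.5-fold, against 7.02% of measured genes. Dnmt3l, a cofactor of the de novo methyltransferases, and Hdac8, a class I deacetylase, passed 1.5-fold in 1 comparison each. Dnmt3l read −3.98 in Aspp1-/-p53-/- cells, −3.61 in p53-/- cells, −3.38 in Aspp1-/- cells and −3.91 in WT cells, a log2 difference of −0.60 in Aspp1-/-p53-/- against Aspp1-/- cells. Hdac8 read −0.79 in Aspp1-/-p53-/- cells, −0.18 in p53-/- cells, −0.81 in Aspp1-/- cells and −0.66 in WT cells, and p53-/- stood above the other 3.

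Of 4 loci known to be held silent by Polycomb, few gave signal. Cdkn2a, which encodes p16 and p19Arf, and Pax5, a B cell regulator, were not above background on any array. Cdkn2b, which encodes the inhibitor p15, was well above background in Aspp1-/- cells alone, at a log2 signal of −3.47. That was 2.38 above its WT reading of −5.85, which was not well above background, so the difference is not a limit. Ebf1, a B lineage regulator, was measured on all 4 arrays, at −2.34 in Aspp1-/-p53-/- cells, −2.28 in p53-/- cells, −2.72 in Aspp1-/- cells and −2.09 in WT cells. B lineage markers, a list that includes Ebf1 and Pax5, shared its direction mainly in Aspp1-/- cells. There 6 of 7 measured ones, Ebf1 among them, were below WT, with a median of −0.39. In p53-/- cells only 1 of 7, Ebf1 itself, was below WT, with a median of 0.32. In Aspp1-/-p53-/- cells 2 of 7 were, with a median of 0.09. The summed signal of these markers was 22.1 in Aspp1-/-p53-/- cells, 24.4 in p53-/- cells, 18.6 in Aspp1-/- cells and 21.7 in WT cells. The part of these markers in the Ebf1 value was not tested.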

How the data were processed

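RNA of LSK cells was hybridised to 4 Agilent 1-colour arrays of design 028005, 1 per genotype, each of RNA pooled from 3 mice per the labels' design text. Per the file headers, Agilent Feature Extraction 10.7.3.1 gave each spot's intensity, and probe positions are those of mm9. Background is already subtracted from the deposited processed intensity, with no scaling between arrays, and the deposited flags, as other values of 0 or 1, mark spots well above background. The authors' value table holds log2 values, whose scale and direction were read from the values. Differences between its columns correlated at r = 1 with the same differences of processed intensity over 26469 probes, its column medians were 0.0478 for Aspp1-/-p53-/-, 0.0267 for p53-/-, −0.0422 for Aspp1-/- and −0.0661 for WT, and no source used here gives the constant subtracted per array.

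After removal of control and outlier spots, a probe was the mean of its spots, and log2 processed intensity was set relative to each array's 75th percentile, a signal of 469 for Aspp1-/-p53-/-, 512 for p53-/-, 523 for Aspp1-/- and 502 for WT. A gene was its GeneName with the brightest probe (mean of 4 arrays). The 35 members had 61 probes, 21 members having 1 probe, and 32 brightest probes had a RefSeq accession of the same symbol. The number of arrays limits the precision: with 1 array per genotype, a rule of size replaced a test (2-fold, and 1.5-fold as the second size). An additive model was fitted with limma 3.58.1 in R 4.3.3 (prior degrees of freedom 2.142). Bounds for probes not above background are the brighter value against the higher of the lowest signal well above background on the dimmer array and the dim probe's own value. Alternatives were normexp background correction (offset 50), median scaling, quantile normalization, the mean of a gene's probes, a looser filter and the value table. All members are accounted for; genes of other chromatin lists are named if past 1.5-fold. The members, lists and tests were chosen with earlier results of these data known.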

Additional observations from a re-analysis of the deposited data

Results flagged for a closer look

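Probes of Phc3 other than its brightest gave a signal that the comparisons above do not use. The probe at chr3:30805731 (start, mm9), a second probe of NM_153421, was well above background in p53-/- cells alone, at a log2 signal of −3.95. It read −4.16 in Aspp1-/-p53-/- cells, a gap from p53-/- cells within the scanner error. Its WT reading was −5.07, not well above background, and p53-/- cells read 2.17-fold above that. The probe at chr3:30828693, annotated to ENSMUST00000099163, was well above background in Aspp1-/-p53-/- cells at −2.71 and in Aspp1-/- cells at −4.33. It was not in p53-/- cells, at −4.35, or in WT cells, at −5.13. The Aspp1-/- and p53-/- readings were thus nearly equal, although the flag separates them. The signal of that probe was 5.36-fold above the WT reading in Aspp1-/-p53-/- cells and 1.74-fold above it in Aspp1-/- cells. Because the WT readings were not well above background, these folds are not limits. The brightest Phc3 probe read 1.36 in Aspp1-/-p53-/- cells, 1.30 in p53-/- cells, 1.34 in Aspp1-/- cells and 1.27 in WT cells, so the probes of this gene disagree. No cause was tested.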

How the results depend on the processing

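The values of the 35 members in the 5 comparisons were recomputed under 6 alternatives, 1050 values in all. Of these 1045 moved by less than the scanner error, 5 moved by more (4 with the mean of a gene's probes, 1 with normexp) and 0 reversed a difference past 1.5-fold. Only Kdm6b had a difference past 1.5-fold. Part of this was fixed in advance. The looser filter keeps each member's brightest probe, and the value table differs by a constant per array. The mean of probes leaves the 21 members with 1 probe unchanged. A sign change within the scanner error counted as no move: Cbx7 in Aspp1-/-p53-/- against Aspp1-/- cells was at −0.14 and reached 0.06. With the mean of a gene's probes, the log2 difference of Kdm5b was 0.08 in Aspp1-/-p53-/- against WT cells and 0.18 in Aspp1-/- against WT cells, and in Aspp1-/-p53-/- against Aspp1-/- cells Tet1 was at −0.10 and Phc1 at −0.28. With normexp, Cbx7 was at −0.09 in Aspp1-/-p53-/- against WT cells. No member passed 2-fold under any of the 6. At the added 1.25-fold size, the counts with 75th percentile scaling were 5 in Aspp1-/-p53-/- against WT cells, 2 in p53-/- against WT cells and 2 in Aspp1-/-p53-/- against Aspp1-/- cells. They fell under 3 alternatives. With normexp, 3 members passed in Aspp1-/-p53-/- against WT cells (without Tet1 at −0.32 and Cbx7) and 1 in p53-/- against WT cells (without Cbx7 at −0.20). With the mean of a gene's probes, 4 passed in Aspp1-/-p53-/- against WT cells (without Tet1 at −0.20), and 1 passed in Aspp1-/-p53-/- against Aspp1-/- cells, where quantile normalization also left 1, Kdm6b in both. Kdm6b ranged from −0.72 to −0.69 in Aspp1-/-p53-/- against WT cells, and its p53 term had an adjusted p (limma) between 0.172 and 0.644. Among measured genes, 430 passed 2-fold in Aspp1-/-p53-/- against WT cells, 228 with normexp and 1636 with genes well above background on at least 1 array. In p53-/- against WT cells these counts were 208, 106 and 1447, and in Aspp1-/- against WT cells 100, 53 and 833. With quantile normalization 38.3% of the genes past 1.5-fold in p53-/- against WT cells were higher, against 50.9% with 75th percentile scaling. The 1 gene that limma called for loss of Aspp1 with normexp was not a member. No paired analysis was possible because each genotype has 1 array, and for the same reason no replicate could be left out.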

Other observations

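Across all 35 members, Aspp1-/- cells held the highest signal for 14 members and the lowest for 2, whereas 25.5% of measured genes were highest and 19.6% lowest on that array. In p53-/- cells 2 members were highest and 10 lowest, beside 16.3% and 17.9% of measured genes. In Aspp1-/-p53-/- cells 8 members were highest and 11 lowest, beside 31.7% and 27.6% of measured genes, and in WT cells 11 were highest and 12 lowest, beside 26.5% and 34.8%.

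Where a member had further probes well above background on all 4 arrays (21 probes of 11 genes), the direction of the further probe matched that of the brightest for 14 of 21 in Aspp1-/-p53-/- against WT cells, 12 of 21 in p53-/- against WT cells and 12 of 21 in Aspp1-/- against WT cells. The median gap between a further probe and the brightest was 0.125 on the log2 scale in Aspp1-/-p53-/- against WT cells. The widest, 0.981, was that of the AK163481 probe of Kdm5b. Kdm6b, Asxl1 and Cbx8 have a single probe each, so their values have no such check.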
